A study of Homo sapiens with 24 samples.

Results

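The comparison set vehicle-treated U937 cells beside 3 other human acute myeloid leukemia (AML) lines, using the arrays of cells that had received only the solvent dimethyl sulfoxide (DMSO). Its members are the 3 U937 DMSO arrays and the 9 DMSO arrays of MOLM-14, HL-60 and KG-1, 3 per line, which is 12 of the 24 arrays of the series. They were chosen by their labels alone, and all 19724 probe sets with a single gene symbol entered the test. Each comparison line had the same weight, so the value reported is the U937 mean minus the mean of the 3 other lines' means, on the scale of log2(intensity + 1), where a difference of 1 is a 2-fold change. The study exposed each line for 24 h to DMSO or to 4 µM R406, an inhibitor of the kinase SYK, in triplicate, and its title concerns a leukemia dependence on integrin beta 3. R406 arrays appear here mainly as a repeat of the comparison in the same lines, on arrays the DMSO test did not use. They also entered the choice of each gene's probe set, an alternative fit and a test of the change from DMSO to R406.

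U937 is an established monocytic line derived from a histiocytic lymphoma and is widely used as a model of macrophage maturation. MOLM-14 is a monocytic AML line with a fusion of MLL and an internal tandem duplication in FLT3, HL-60 a promyelocytic line that makes primary granules, and KG-1 an immature myeloblast line. Each is a single line, so the arrays sample 4 lines of leukemia cells rather than classes of leukemia, and a difference belongs to these lines. Whether triplicate arrays came from separate cultures is not labelled, so p-values measure only the spread between arrays, which may be technical.

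Monocytes and macrophages are phagocytes: they take up particles, degrade them in lysosomes filled with cathepsins and glycosidases, and recruit further leukocytes by secreting chemokines. GPNMB is a transmembrane glycoprotein of endosomal and lysosomal membranes in macrophages, osteoclasts and melanocytes. CCL2 is the chemokine that attracts monocytes through the receptor CCR2.

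The 12 arrays covered intensities from 3.42 to 12548, with array medians between 19.1 and 20.5, and 2 arrays of a line typically differed by a median of 0.09 to 0.11 on the log2 scale. The 3′ to 5′ log2 ratio of the ACTB control probe sets, a sign of RNA integrity, averaged 0.49 in U937, 0.48 in MOLM-14, 0.87 in HL-60 and 0.73 in KG-1, and its part in the differences was not tested. No detection calls were used, so a value of about 4 to 10 is near the lowest the arrays report and gives no evidence that a transcript was present. Markers named for the monocytic type did not all mark U937. CD14 lay between 6.18 and 8.52, CD68 between 8.14 and 9.02, CSF1R between 12.04 and 15.7 and ITGAX between 11.6 and 12.6, and CD14 was high only in HL-60, with a mean of 279. ITGAM was measured at 75.4 to 84.3 and FCGR1A at 82.1 to 88.7, both below the HL-60 arrays. FCGR1A differed from the mean of the other lines by -0.76, by -0.17 without HL-60 and by -0.22 without MOLM-14. For this gene MOLM-14 thus lay above U937 as well. LYZ and CD33 were not analysed here, having no probe set with a single symbol.

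U937 differed from the mean of the other lines at 9688 probe sets (49.1%) with limma's adjusted p under 0.05, the rule for a call throughout. Higher levels in U937 were called at 4756 probe sets (24.1%) and lower levels at 4932 (25.0%). A call together with at least a 2-fold difference held for 867 probe sets (4.4%) that were higher and 823 (4.17%) that were lower. With each of the 12165 genes represented by its brightest probe set, 608 genes (5.0%) were at least 2-fold higher and 609 (5.01%) at least 2-fold lower, around a median difference of -0.016. All 3 U937 arrays lay above all 9 others at 1554 genes called higher (12.8%), and below all 9 at 1204 called lower (9.9%). Against single lines, the probe sets at least 2-fold higher and lower numbered 1061 (5.38%) and 955 (4.84%) for MOLM-14, 1118 (5.67%) and 927 (4.7%) for HL-60, and 1319 (6.69%) and 1466 (7.43%) for KG-1. Among the 4 lines, 201 genes had their U937 mean at least 2-fold above every other line and 146 at least 2-fold below, against 476 and 279 for KG-1, 226 and 110 for MOLM-14 and 135 and 136 for HL-60.

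**Figure D1:**
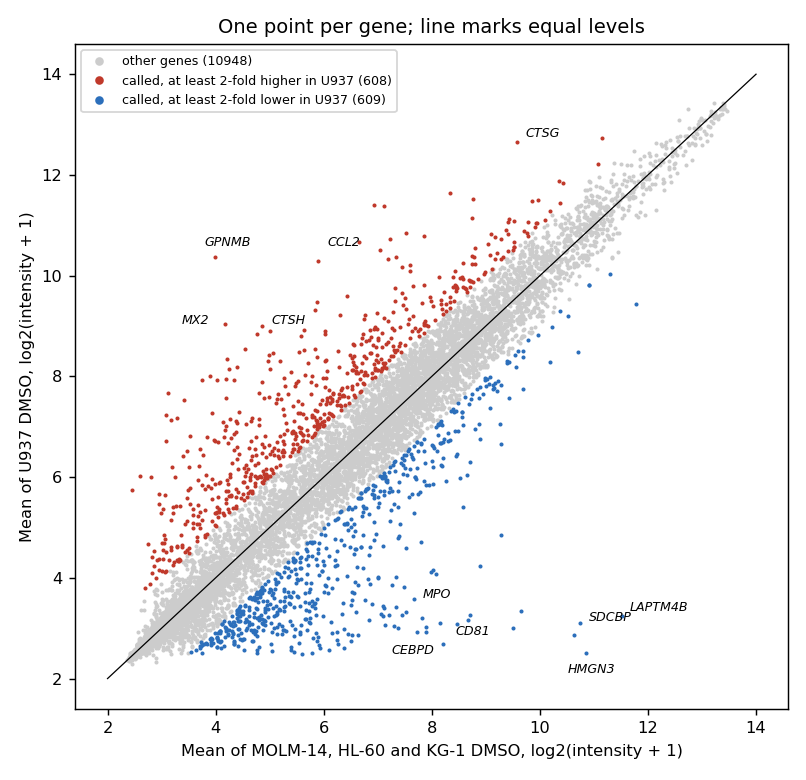
Each point is 1 of 12165 genes, with its mean over MOLM-14, HL-60 and KG-1 DMSO arrays on the x axis and its U937 DMSO mean on the y axis, both as log2(intensity + 1). The 608 genes in red and 609 in blue were called at least 2-fold higher or lower in U937; GPNMB and CCL2 sit far above the line of equal levels, and HMGN3 and LAPTM4B sit near the bottom of the U937 range.

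GPNMB showed the highest difference of any gene. Its intensity was 1391, 1285 and 1313 in the 3 U937 arrays, 10.7, 10.2 and 8.06 in MOLM-14, 21.3, 19.9 and 14.4 in HL-60 and 21.8, 18.9 and 15.7 in KG-1. U937 alone was high, the other 9 arrays stayed at 8.06 to 21.8, and no array overlapped. In such bulk RNA, fewer expressing cells and less RNA per cell cannot be told apart. The log2 difference was 6.39 ± 0.12 (SE, n = 3 arrays per line, limma adjusted p = 6.52e-15), and it was 6.97 ± 0.14 against MOLM-14, 6.11 ± 0.14 against HL-60 and 6.08 ± 0.14 against KG-1.

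CCL2 followed another order. Its intensity was 1231, 1208 and 1326 in U937 and 749, 748 and 605 in HL-60, but only 23.6, 19.2 and 17.9 in MOLM-14 and 12.4, 14.9 and 12.6 in KG-1. U937 and HL-60 were thus both high, with every U937 array above every HL-60 array, and the other lines were near the floor. The difference from the mean of the 3 lines was 4.40 ± 0.089 (SE, n = 3 per line, limma adjusted p = 2.18e-14), made up of 5.90 ± 0.11 against MOLM-14, 6.46 ± 0.11 against KG-1 and 0.85 ± 0.11 against HL-60 (limma adjusted p = 1.1e-05). Leaving HL-60 out of the comparison gave 6.18.

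**Figure D2:**
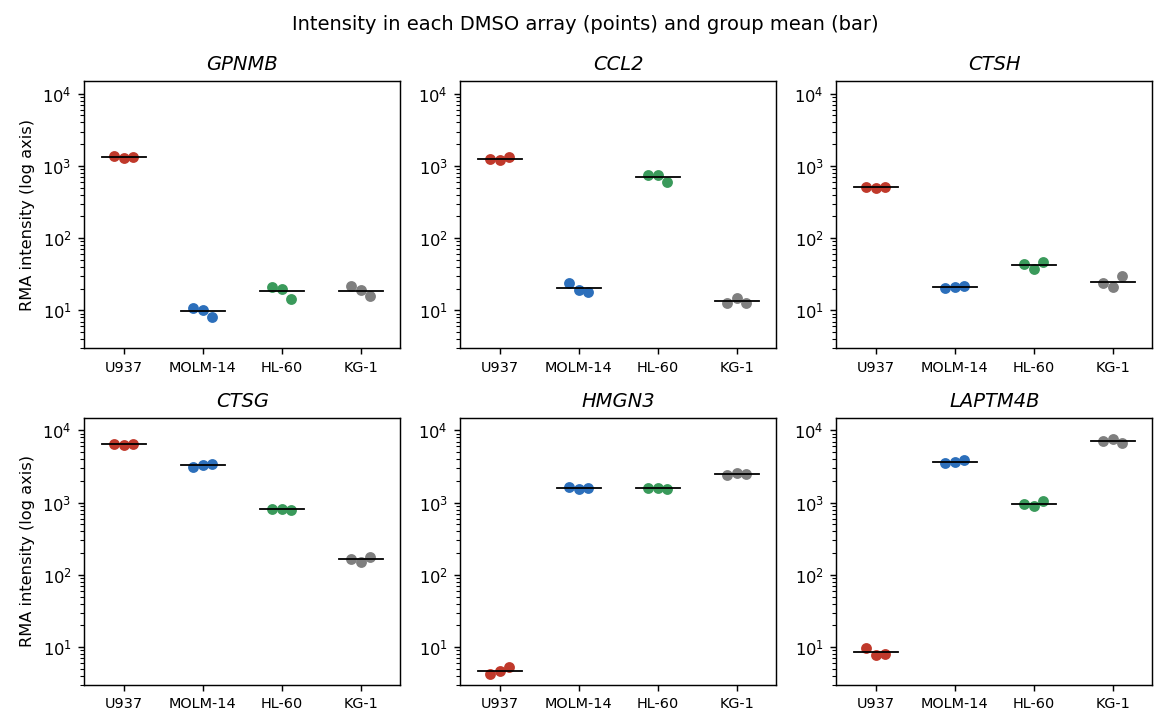
Intensity (log axis) of GPNMB, CCL2, CTSH, CTSG, HMGN3 and LAPTM4B in each of the 12 DMSO arrays, 3 per line, with a bar at the mean of the 3. GPNMB and CTSH stand apart in U937, CCL2 is shared with HL-60, CTSG falls from U937 through MOLM-14 and HL-60 to KG-1, and HMGN3 and LAPTM4B are near the floor in U937 alone.

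Besides these, 13 genes made up the 15 highest differences among genes whose U937 arrays all lay above the other 9. MX2, an interferon-induced GTPase with antiviral activity, read 521, 532 and 520.0 in U937 and 8.45 to 41.6 elsewhere, a difference of 4.86 ± 0.086 (SE). CYP46A1, a cholesterol hydroxylase best known from neurons, read 169, 218 and 231 against 6.82 to 8.75, and LHX2, a LIM homeobox transcription factor, 146, 146 and 157 against 6.34 to 9.74. HS3ST2, which adds sulfate to heparan sulfate, and TMEM158, a membrane protein induced by RAS, had U937 means of 244 and 258 and differences of 4.17 and 4.12. All 5 were high in U937 alone, without overlap.

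CTSH, a lysosomal cysteine protease, read 512, 502 and 519 in U937 and 20.3 to 46.2 in the rest, and its difference was 4.13 ± 0.089. GOLM1, a Golgi membrane protein, differed by 4.13 and FERMT1, a kindlin that activates integrins, by 4.12. The remaining 5 were raised in 1 or 2 other lines as well, at lower levels. CD93, a lectin-like receptor of myeloid and endothelial cells, had means of 2689.5 in U937, 474 in MOLM-14, 484 in KG-1 and 6.97 in HL-60. ANXA2, an annexin that binds calcium and phospholipid at membranes, stepped down from 2665 in U937 through 869.7 in MOLM-14 and 144 in HL-60 to 19.9 in KG-1. NXF3, of the nuclear RNA export factor family, was at 1625 in U937, 435 in MOLM-14, 296 in HL-60 and 7.19 in KG-1. APOBEC3B, a cytidine deaminase, reached 456 in U937 and 105 in MOLM-14. HSPA1A, an inducible heat shock chaperone with a nearly identical neighbouring copy whose signal may be included, was at 372 in U937 and 136 in KG-1.

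The lowest genes were further from the other lines than the highest ones. HMGN3, a nucleosome-binding protein, read 4.19, 4.64 and 5.29 in U937, 1628, 1555 and 1596 in MOLM-14, 1601, 1601 and 1530.3 in HL-60 and 2435, 2538 and 2523 in KG-1. U937 was at the floor and all 9 other arrays were high, a difference of -8.34 ± 0.059 (SE, n = 3 per line, limma adjusted p = 4.4e-19). LAPTM4B, a transmembrane protein of late endosomes and lysosomes, read 9.55, 7.79 and 8.05 in U937, 3512, 3708 and 3859.9 in MOLM-14, 966, 885 and 1064 in HL-60 and 7139, 7513 and 6657 in KG-1, and differed by -8.28 ± 0.072. Its other probe sets gave -6.91 and -6.53. SDCBP, the scaffold protein syntenin that binds syndecans, was at 7.21 to 8.08 in U937 and 1180.2 to 2780.0 elsewhere (difference -7.63 ± 0.056).

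YBX3, a Y-box protein that binds DNA and RNA, was at 5.84 to 6.83 in U937 and 977 to 1915 elsewhere, a difference of -7.76. Another of its probe sets gave -6.58 and a further one -0.12, so its probe sets disagree. GGH, which trims glutamate from folates in lysosomes, differed by -6.50, CD81, a tetraspanin, by -5.44 and BLMH, the cytosolic protease bleomycin hydrolase, by -5.38. NRIP1, a corepressor of nuclear receptors, differed by -5.51, OXR1, a protein of oxidation resistance, by -5.52 and ARMCX6, an armadillo repeat protein, by -5.04. CA2, a carbonic anhydrase, differed by -4.96, MEST, an imprinted gene, by -4.88 and PRKD3, a protein kinase D, by -4.66. The other probe set of PRKD3 gave -1.98. CYP1B1, a cytochrome induced through the aryl hydrocarbon receptor, differed by -6.30, and its other probe sets by -5.62, -4.69 and -0.53. CEBPD, a C/EBP transcription factor of myeloid cells, read 8.52, 6.26 and 5.36 in U937 and 74.1 to 566 in the other arrays, a difference of -4.80, while its other probe sets gave -0.45 and -0.56. The U937 arrays of all 15 genes lay below all 9 others, which was a condition of their choice.

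**Figure D3:**
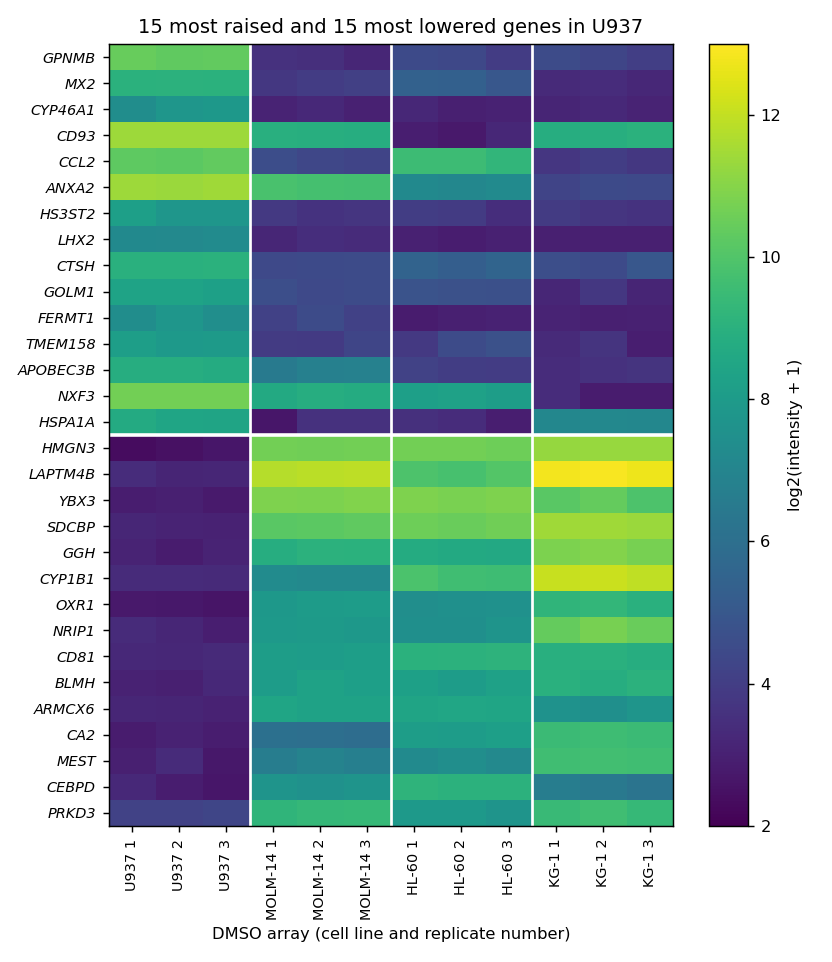
Colour gives log2(intensity + 1) of the 15 highest (top) and 15 lowest (bottom) genes in each of the 12 DMSO arrays. The 3 U937 columns are bright at the top and dark at the bottom, and the lines besides U937 differ among themselves at CD93, CCL2, ANXA2, NXF3 and CYP1B1.

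Most lysosomal genes measured were higher in U937 than in the mean of the other lines. Of 29 measured members of a list of lysosomal enzymes and membrane proteins, 23 were called higher and 4 lower, beside 26.0% and 26.8% of all genes. At least 2-fold higher were 10 members and at least 2-fold lower none, beside 5.0% and 5.01% of all genes, and the median difference was 0.73. In 16 members all 3 U937 arrays exceeded the 9 others, beside 12.8% of all genes. HL-60 had a higher mean than U937 for CTSA, GUSB, HEXA, CD63, GALNS and GM2A, although these were called higher. Leaving out MOLM-14 or KG-1 left 10 and 9 members at least 2-fold higher, and leaving out HL-60 gave 17.

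The cathepsins led this list. CTSZ, a carboxypeptidase, read 1082, 1679.8 and 1262 in U937, 288, 283 and 305 in MOLM-14, 294, 308 and 314 in HL-60 and 46.9, 48.9 and 44.1 in KG-1, a difference of 3.02 ± 0.10 (SE, limma adjusted p = 2.44e-12), though its other probe set gave 0.13. CTSD, the main aspartic protease of the lysosome, read 341, 306 and 299 against 29.5, 28.8 and 29.5 in MOLM-14, 136, 120.4 and 124 in HL-60 and 78.2, 66.6 and 68.99 in KG-1 (difference 2.28 ± 0.064, limma adjusted p = 5.94e-13). U937 was highest for both, with no overlap. GLB1, the beta-galactosidase of lysosomes, had a mean of 650.0 ± 24.96 (SD, n = 3) in U937 and 243 ± 19.3 in HL-60, the next line. NPC2, which carries cholesterol out of lysosomes, was at 1809 ± 50.5 in U937 and 931 ± 36.2 in KG-1. NEU1, the lysosomal sialidase, and ASAH1, the acid ceramidase, differed by 1.66 ± 0.067 and 1.58 ± 0.054. SCARB2, the receptor that delivers glucocerebrosidase, GLA, an alpha-galactosidase, and SMPD1, the acid sphingomyelinase, differed by 1.21, 1.13 and 1.06. Other probe sets gave 0.24 and -0.16 for SCARB2, 0.17, -0.018 and -0.04 for SMPD1, and 1.64, 1.17 and -0.015 for ASAH1, so those genes rest in part on the probe set chosen. LAMP1, an abundant membrane glycoprotein, differed by 0.71. Not every member followed. PSAP, the precursor of the saposins, was -0.88 and lower than all 9 other arrays, CTSL differed by -0.56 and LIPA, the acid lipase, by -0.38, a call lost without MOLM-14 (-0.15).

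**Figure D4:**
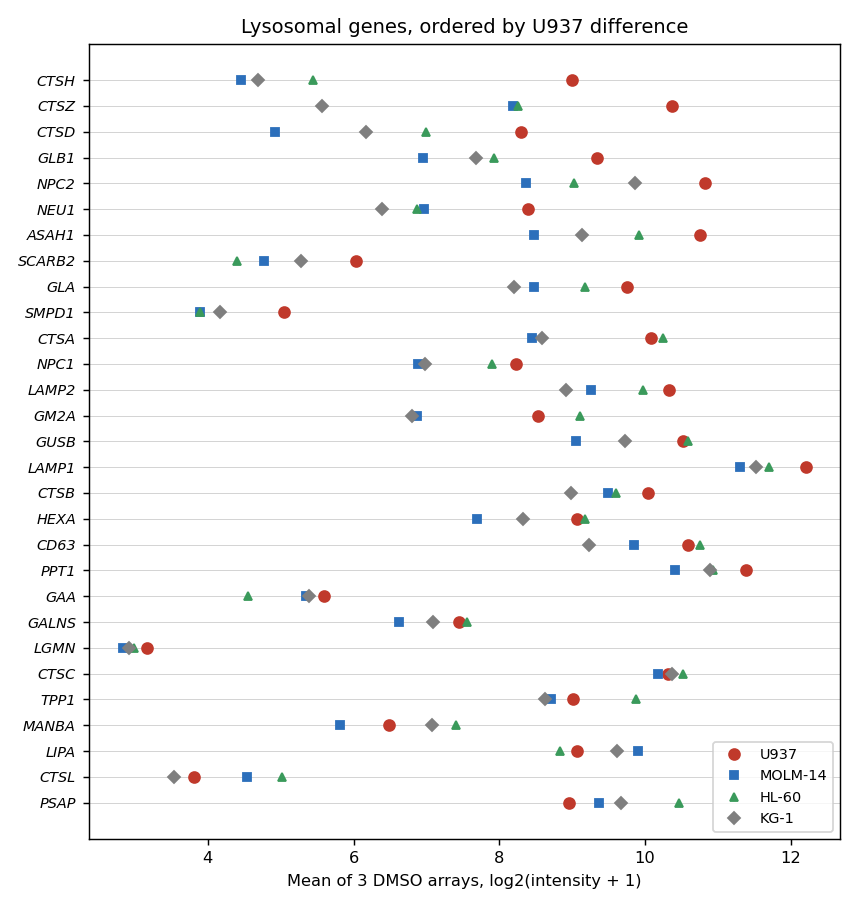
Mean log2(intensity + 1) of the 3 DMSO arrays of each line for the 29 measured lysosomal genes, ordered by the difference between U937 and the mean of the other lines. The red U937 points lie to the right of every other line in the upper rows and left of HL-60 in some middle rows. In the lowest rows they lie among or left of the other lines, with CTSH and PSAP at the ends.

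GPNMB itself belongs to a list of MiT/TFE factors, the basic helix-loop-helix proteins that switch on lysosomal and melanosomal genes, and genes linked to them. Of its 18 measured members 9 were called higher and 2 lower, beside 26.0% and 26.8% of all genes, but only GPNMB and RRAGC, a small GTPase of nutrient signalling (difference 1.04), were at least 2-fold higher. TFEB was higher by 0.89 ± 0.093, with MOLM-14 above U937 in the single-line means (96.3 against 73.6), and it was 0.15 and no longer called without KG-1 (limma adjusted p = 0.182).

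MiT/TFE factors bind CACGTG in promoters of lysosomal genes and the longer TCACATGA in genes of pigment cells. The 250 bases before the RefSeq start site (GRCh38.p14) are shown for GPNMB, the gene with the highest difference, and for CTSD and NEU1, 2 raised lysosomal genes. Capitals mark TCACATGA in GPNMB and CACGTG in the others, and each sequence runs 5′ to 3′ along the gene.
GPNMB: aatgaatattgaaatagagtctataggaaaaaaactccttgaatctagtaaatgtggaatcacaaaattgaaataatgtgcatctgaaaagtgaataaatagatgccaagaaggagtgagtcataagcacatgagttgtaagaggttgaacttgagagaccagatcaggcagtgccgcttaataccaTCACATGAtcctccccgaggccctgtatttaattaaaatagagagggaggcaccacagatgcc
CTSD: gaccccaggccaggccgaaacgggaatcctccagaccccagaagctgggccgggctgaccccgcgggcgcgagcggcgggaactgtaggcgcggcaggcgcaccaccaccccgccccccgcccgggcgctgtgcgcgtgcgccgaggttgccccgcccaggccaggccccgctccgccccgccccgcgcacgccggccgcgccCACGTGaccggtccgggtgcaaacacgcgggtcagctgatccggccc
NEU1: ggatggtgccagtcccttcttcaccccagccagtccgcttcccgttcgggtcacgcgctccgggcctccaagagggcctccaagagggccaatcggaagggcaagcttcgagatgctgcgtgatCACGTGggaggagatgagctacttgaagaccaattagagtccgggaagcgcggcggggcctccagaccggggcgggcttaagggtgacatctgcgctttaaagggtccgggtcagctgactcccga
These stretches are chr7:23246525-23246774 on the plus strand, chr11:1763928-1764177 on the minus strand and chr6:31862822-31863071 on the minus strand. The match in GPNMB starts 63 bases before the start site, that in CTSD 47 and that in NEU1 126 bases before it. Motifs were searched on both strands in windows of 300 bases (250 before to 50 after the start, the first start listed per gene). CACGTG, which reads the same on both strands, was found in 7.43% of 27305 promoters, in 9.43% of 9711 promoters of measured genes and in 7 of 22 promoters of the lysosomal list (31.8%). TCACATGA was found in 1.01% of all promoters and in 3 of those 22. It shares CA and TG with CACGTG but no match of the one is a match of the other. The list is made of known lysosomal genes, so the motif shares describe the list and not the difference between lines. Any link of a motif to the differences was not tested. The 7 lysosomal genes with CACGTG were all called higher, with a median difference of 0.71, and of the 15 without it 11 were, with a median of 0.98. CCL2 and MX2 had no entry in the promoter table.

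Primary granules store the serine proteases and peroxidase of neutrophil and monocyte precursors, and their genes split by protein. CTSG, cathepsin G, read 6471, 6229 and 6540.0 in U937, 3111, 3338 and 3405 in MOLM-14, 822, 829 and 800.4 in HL-60 and 165, 152 and 175 in KG-1. The 4 lines did not overlap and U937 was highest (3.07 ± 0.055, SE, limma adjusted p = 6.46e-15). ELANE, neutrophil elastase, was at 3053, 2900.1 and 2878 in U937, close to MOLM-14 (2924, 2945 and 3233) and HL-60 (2894, 2453 and 2580.4) and far from KG-1 (7.73, 10.3 and 9.47), so its difference of 2.77 ± 0.077 was 0.058 and no longer called without KG-1. MPO, myeloperoxidase, read only 12.1, 10.3 and 10.4 in U937, below MOLM-14 (47.2, 44.9 and 39.97) and KG-1 (29.5, 24.5 and 31.6) and far below HL-60 (6547, 6341 and 6359.9), and differed by -4.10 ± 0.078 (limma adjusted p = 1.11e-14). Of the 12 measured members 9 were called higher and 3 lower, beside 26.0% and 26.8% of all genes. At least 2-fold were 5 and 3 of them, beside 5.0% and 5.01%. PRG2, the eosinophil granule major basic protein, was -3.02 and BPI, which binds endotoxin, -2.67, both high in HL-60 only. PRTN3 and AZU1, the other serine proteases of this family, differed by 0.64 and 0.76, with HL-60 and MOLM-14 respectively above U937. The list's median was 0.81, and -0.23 with KG-1 left out, which also turned PRTN3 to -1.04 and AZU1 to -0.94.

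Monocyte and macrophage markers did not move together. Among 23 measured, 4 were called higher and 12 lower, beside 26.0% and 26.8% of all genes, and 3 and 5 by at least 2-fold, beside 5.0% and 5.01%. Their median was -0.32. MNDA, a nuclear antigen of myeloid cells, read 1435, 1418 and 1519.9 in U937, 163, 150.3 and 163 in MOLM-14, 1855, 1918 and 1903 in HL-60 and 5.82, 7.29 and 7.08 in KG-1, a difference of 3.46 ± 0.063 that left U937 below HL-60. CD36, a scavenger receptor for lipids, read 61.1, 52.5 and 71.04 in U937 and 7.35 to 28.4 in the other arrays (2.02 ± 0.083), and FCN1, the ficolin of monocytes, 92.3, 79.3 and 74.2 against 14.5 to 36.6 (1.96 ± 0.10). These 2 had no overlap. CD14, CD86 and CLEC7A differed by -1.56, -1.54 and -1.20, and in each of them HL-60 was the line with the highest mean. Without HL-60, CD14 was 0.19 and CLEC7A -0.23, neither called. Of 20 granulocyte markers 3 were called higher and 8 lower, with none at least 2-fold higher. S100A8, a calcium-binding protein of neutrophils and monocytes, was at 225 in U937, 572 in MOLM-14, 5469 in HL-60 and 13.2 in KG-1, a difference of -0.65 that became 1.33 without HL-60.

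Genes of macrophage lipid handling were called higher in 6 and lower in 5 of 16, beside 26.0% and 26.8% of all genes. PPARG, the nuclear receptor of lipid uptake, read 66.1, 80.1 and 76.8 in U937, 5.86, 6.58 and 6.5001 in MOLM-14, 30.003, 40.8 and 37.6 in HL-60 and 7.003, 7.07 and 7.402 in KG-1 (2.53 ± 0.084, SE, limma adjusted p = 3.65e-12), with U937 highest and HL-60 second. PLIN2, which coats lipid droplets, differed by 1.17 ± 0.075. LPL, lipoprotein lipase, was -2.37 and ABCA1, a cholesterol exporter, -1.27. The other probe set of PLIN2 gave -0.056, and those of ABCA1 ran from -1.22 to -0.011. Without HL-60, where LPL had a mean of 1428, LPL was -0.21 and not called, and none of the 16 was at least 2-fold lower.

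Of 30 measured chemokines 5 were called higher and 3 lower, beside 26.0% and 26.8% of all genes. The other 22 were not called, most of them near the floor in all lines. CCL2, CCL23 and CXCL8 were at least 2-fold higher, as were 5.0% of all genes. CCL23 read 99.4, 91.7 and 87.9 in U937 and 65.2, 64.5 and 64.2 in HL-60, and lay above all 9 other arrays. Its difference was 1.82 ± 0.055 from the mean of the 3 lines and 0.52 ± 0.068 from HL-60, the nearest line. CXCL8, the neutrophil attractant interleukin-8, read 256, 266 and 362 in U937 but 2140.5, 2259 and 2071 in HL-60, and its difference of 1.08 ± 0.086 came from MOLM-14 (19.7) and KG-1 (58.5). It was -0.29 with MOLM-14 left out. Of its 8 other listed probe sets 1 gave 0.83 and 7 lay between -0.15 and 0.12 and were not called; whether the array's old annotation assigns those 7 rightly was not tested. CCL5 was higher by 0.96 ± 0.085, less than 2-fold. Receptors for chemoattractants gave 6 calls higher and 4 lower among 18, beside 26.0% and 26.8% of all genes. CXCR4, which responds to CXCL12, was at 1577 in U937, 1574 in HL-60, 932 in MOLM-14 and 100.5 in KG-1. PTAFR, the receptor for platelet-activating factor, read 65.9, 76.2 and 68.99 against 11.4 to 47.6 and was higher in U937 by 1.75 ± 0.072. The other probe set of PTAFR gave 0.33. CCR2, the receptor for CCL2, was 19.2, 15.3 and 20.5 in U937, near KG-1 (11.8, 12.7 and 13.9) and below MOLM-14 (132, 136 and 136) and HL-60 (227, 248 and 216), a difference of -1.98 ± 0.079. FPR1, a formyl peptide receptor, differed by -1.13, was high in HL-60 only and turned to 0.43 without that line, and its other probe set gave -0.092.

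Among 22 inflammatory cytokines and genes of NF-kB feedback, 5 were called higher and 7 lower, beside 26.0% and 26.8% of all genes. IL32, a cytokine of lymphocytes and monocytes, read 323, 321 and 308 in U937, 294, 286 and 302 in KG-1, 11.8, 11.1 and 8.02 in MOLM-14 and 10.3, 7.47 and 7.42 in HL-60. U937 and KG-1 were both high, with U937 above (3.35 ± 0.10). TNF was lower by -1.71 ± 0.11, at 27.9 in U937 against 302 in MOLM-14 and 242 in HL-60, and SPP1, osteopontin, by -1.19 ± 0.14. Of 22 toll-like receptors and adaptors 5 were called higher and 8 lower, beside the same shares of all genes. TLR4, the endotoxin receptor, was higher by 1.42 ± 0.11 and matched by HL-60 (33.2 and 35.9), while its partner LY96 was -1.49 and CD14 near the floor. IRAK1, a kinase downstream of these receptors, read 2043, 2237 and 2184 against 675 to 1259.6 (1.29 ± 0.066), and IRAK3, an inhibitory relative, was lower by -1.34 ± 0.08.

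Interferon-induced genes were called higher in 8 and lower in 11 of 28, the first near the 26.0% of all genes and the second above the 26.8%, with a median of -0.11. MX2 was the extreme. OAS3, an enzyme that activates antiviral RNA decay, read 55.7, 42.9 and 62.6 against 10.8 to 17.2 (1.95 ± 0.12, SE, limma adjusted p = 2.32e-09), without overlap. IFI6 was higher by 1.25 ± 0.079 and ISG15, a ubiquitin-like modifier, by 1.02 ± 0.075. IFI35 was lower than all 9 other arrays, at 11.8, 12.9 and 15.7 against 42.7 to 83.2 (-2.17 ± 0.088). RSAD2 (viperin) and GBP1, a guanylate-binding protein, were -2.34 and -1.48 with KG-1 high, at 652 and 139.6, while U937 and the remaining lines stayed near the floor. Without KG-1, GBP1 was -0.07 and not called, and 7 members were at least 2-fold higher and 1 lower, against 4 and 5 with it. The interferon-stimulated response element, bound by interferon-activated factors, was searched on both strands as GAAA, any 2 bases and GAAA again. This motif was present in 15 of 20 promoters of the list (75%) and in 3.65% of all promoters. The 250 bases before the start of OAS3 (chr12:112938224-112938473, plus strand, GRCh38.p14), shown for a raised member, hold it 2 times, in capitals.
OAS3: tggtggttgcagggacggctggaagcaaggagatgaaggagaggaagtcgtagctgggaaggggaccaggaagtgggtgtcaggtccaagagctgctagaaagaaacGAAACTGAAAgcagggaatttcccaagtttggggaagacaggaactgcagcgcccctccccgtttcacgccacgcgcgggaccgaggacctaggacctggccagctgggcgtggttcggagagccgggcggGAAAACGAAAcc
As the list was drawn up from known interferon targets, the motif's share describes the list and not the difference between lines.

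MHC class II genes, which present peptides to helper T cells, were low in U937. Of 12 measured, 9 were at least 2-fold lower and none higher, beside 5.01% and 5.0% of all genes, with a median of -1.91. HLA-DRA read 8.3004, 9.36 and 11.1 in U937, 12.2, 11.1 and 11.3 in HL-60, 80.4, 70.8 and 80.1 in MOLM-14 and 2961, 2668 and 2563 in KG-1, so U937 lay near HL-60 and KG-1 stood apart. CD74, the invariant chain, was below all 9 other arrays at 34.2, 37.7 and 26.8 against 82.04 to 478 (-2.34 ± 0.087), as was HLA-DMA (-2.33 ± 0.086). Without KG-1 only 2 of the 12 were at least 2-fold lower and the median was -0.21. MHC class I and peptide loading genes were called lower in 12 and higher in 3 of 18, with a median of -0.56. Of all genes, 26.8% were called lower and 26.0% higher. HLA-E was lower than in all 9 others, at 603, 628 and 659 against 998 to 1918 (-1.06 ± 0.055). ERAP2, an aminopeptidase that trims peptides for class I, read 9.72, 7.13 and 8.804 in U937 and 112 to 176 elsewhere (-3.85 ± 0.08, limma adjusted p = 2.65e-14). PSMB10, an immunoproteasome subunit, differed by -1.02 ± 0.053, with KG-1 near U937.

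Stem and progenitor genes were called lower in 14 and higher in 1 of 21, beside 26.8% and 26.0% of all genes (median -0.58). Without KG-1, however, the members at least 2-fold lower fell from 7 to 2. CD34 was 16.4, 18.4 and 19.5 in U937, in the range of MOLM-14 and HL-60, and 557, 732 and 549 in KG-1. FLT3, a receptor kinase of progenitors, was below all 9 other arrays: 11.1, 16.9 and 13.3 in U937, 34.3, 29.5 and 36.9 in KG-1, 110.1, 120.2 and 111 in HL-60 and 915, 926 and 902 in MOLM-14 (-3.40 ± 0.10). GATA2, a transcription factor of progenitors, read 14.8, 16.4 and 14.1 in U937 and 37.4 to 1377 elsewhere (-3.32 ± 0.084). The other probe sets of GATA2 gave -0.25 and -1.41. KIT, the stem cell factor receptor, was -1.87 and ANGPT1, angiopoietin, -2.32, both with KG-1 highest. Without KG-1, CD34 was 0.055 and ANGPT1 0.062, neither called. Of 16 genes of the HOX, MEIS and BMI1 locus list, 6 were called higher and 3 lower, beside 26.0% and 26.8% of all genes. BMI1, a Polycomb protein of self-renewal, read 2375, 2204 and 2133 in U937 and 2055, 1937 and 2035 in MOLM-14 and was higher by 1.69 ± 0.057. MEIS1, a HOX cofactor, was at 483 in U937, between KG-1 (591) and MOLM-14 (295), with HL-60 at 7.99. Leaving out HL-60 left none of the 16 at least 2-fold higher.

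Myeloid transcription factors gave 12 calls higher and 6 lower among 25, beside 26.0% and 26.8% of all genes. BATF3, a factor of dendritic cells, read 222, 263 and 266 in U937, 175, 146 and 175 in MOLM-14 and lower in the rest (2.71 ± 0.082). CEBPB, a C/EBP factor of macrophages, read 1244, 1168 and 1176 in U937 and 1096, 991 and 944 in HL-60 (1.48 ± 0.06), with U937 above all 9 others, whereas its relative CEBPD was near the floor as given above. NFE2, a factor of the megakaryocyte and erythroid lineages, was lower by -1.12 ± 0.068.

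Growth factor and cytokine receptors held 11 calls higher and 12 lower among 34, beside 26.0% and 26.8% of all genes. At least 2-fold were 7 and 5 of them, beside 5.0% and 5.01%. TYRO3, a TAM receptor that senses dying cells, read 83.1, 97.7 and 93.3 against 7.33 to 12.2 (3.05 ± 0.079, SE, limma adjusted p = 2.48e-13), and its other probe set gave 1.05. Its relative MERTK read 75.1, 71.7 and 82.9 in U937 and 58.4, 73.8 and 64.9 in KG-1, with lower values in the other lines (1.96 ± 0.10), and its other probe sets gave 1.40 and -0.078. IL18R1, a chain of the interleukin-18 receptor, was higher by 1.94 ± 0.16. FGFR1, a fibroblast growth factor receptor, was -2.47, with U937 (24.2) near HL-60 (27.1) and below MOLM-14 and KG-1, and its other probe sets ranged down to -1.08 and up to 0.16.

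R406 targets SYK, the kinase that binds tyrosine-phosphorylated immune receptor adaptors. Of 23 genes of SYK and ITAM signalling, 8 were called higher and 8 lower, beside 26.0% and 26.8% of all genes. FCER1G, the adaptor chain of activating Fc receptors, read 582, 597 and 609 in U937, 464, 405 and 431 in HL-60, 106, 99.8 and 87.6 in KG-1 and 8.13, 13.01 and 11.3 in MOLM-14 (2.91 ± 0.10). FGR, a SRC family kinase, was high in U937 (239) and HL-60 (501), with MOLM-14 and KG-1 at 16.7 and 10.02. LAT2, an adaptor of the same pathway, was lower than in all 9 others (-0.83 ± 0.064). SYK itself read 482, 495 and 449 in U937, 346, 342 and 355 in MOLM-14, 597, 573 and 606 in HL-60 and 549, 523 and 534 in KG-1 (difference -0.01 ± 0.051, limma adjusted p = 0.855), and with MOLM-14 left out the difference was -0.25 (limma adjusted p = 0.00305). For ITGB3, the integrin of the study's title, the intensities were 6.38, 9.59 and 6.81 in U937 and 7.32 to 9.88 elsewhere (-0.16 ± 0.093, limma adjusted p = 0.196), and without U937 replicate 2 the difference was -0.32 (limma adjusted p = 0.00287). In the R406 arrays it was -0.25 and called. Other probe sets of ITGB3 ran from -0.14 to 0.18 in the DMSO arrays, and the one at 0.18 was called higher. Integrins and adhesion genes were called higher in 9 and lower in 11 of 25, beside 26.0% and 26.8% of all genes. ITGA6, the laminin-binding alpha chain, read 452, 470.2 and 456 in U937, 268, 237 and 245 in KG-1, 43.3, 40.7 and 44.8 in HL-60 and 25.7, 18.8 and 28.8 in MOLM-14 (2.82 ± 0.094), and ICAM1, an integrin ligand, was higher by 1.46 ± 0.087. ITGAL, the alpha chain of the leukocyte integrin LFA-1, read 129.6, 114 and 127 against 256 to 926 (-1.84 ± 0.074), and its ligand ICAM3 was also below all 9 others (-1.85 ± 0.053).

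Iron, heme and NRF2 genes, which handle oxidative stress and heme breakdown, were called higher in 9 and lower in 4 of 18. Of all genes, 26.0% were called higher and 26.8% lower. At least 2-fold higher were 5 of the 18 and lower none, beside 5.0% and 5.01% of all genes. In 8 of the 18 the U937 arrays exceeded all 9 others, beside 12.8% of all genes. BLVRA, biliverdin reductase, read 466, 481 and 482 against 11.7 to 219 (2.88 ± 0.057, SE, limma adjusted p = 1.68e-14), though 1 of its other 3 probe sets gave -0.089. BLVRB differed by 2.07 ± 0.079, NQO1, a quinone reductase, by 2.05 ± 0.065 and HMOX1, heme oxygenase, by 1.62 ± 0.11. CPOX, an enzyme of heme synthesis, was higher by 1.07 ± 0.079. Leaving out MOLM-14 or KG-1 also gave 5 members at least 2-fold higher, and leaving out HL-60 gave 4.

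Secreted and surface proteins of other pathways also differed. Of all genes, 26.0% were called higher and 26.8% lower, and 5.0% were at least 2-fold higher. Of 28 genes of the extracellular matrix, proteases and inhibitors, 11 were called higher and 5 lower, with 5 at least 2-fold higher. SERPINE2, a serine protease inhibitor, read 306, 275 and 266 in U937, 218, 228 and 233 in KG-1, 13.9, 7.98 and 9.12 in MOLM-14 and 10.8, 13.3 and 11.8 in HL-60 (3.15 ± 0.12), and TIMP1, an inhibitor of metalloproteinases, read 890.2, 836 and 863 against 242 to 467 (1.30 ± 0.055). Among 21 complement and coagulation genes 3 were called higher and 7 lower. PROCR, the endothelial protein C receptor, read 142, 129 and 136 against 11.1 to 32.5 (2.95 ± 0.084), and C2, a complement component, 41.5, 41.9 and 42.1 against 7.31 to 11.3 (2.08 ± 0.11). CD59, which protects cells from complement lysis, was lower at 10.9, 12.2 and 9.39 against 14.1 to 391 (-3.21 ± 0.094). S100 genes were called higher in 5 and lower in 3 of 15, led by S100P with 1685, 1685 and 1699.7 in U937, 620.3, 654 and 621 in HL-60 and less in the rest (3.50 ± 0.068). S100A6 was higher by 2.45 ± 0.072. Eicosanoid genes were called higher in 4 and lower in 8 of 20. ALOX5, the lipoxygenase that starts leukotriene synthesis, was 6.49, 7.01 and 6.21 in U937 and 312, 330.3 and 331 in HL-60 (-2.64 ± 0.14), while its other probe sets gave -0.52, 0.024 and -0.90. TBXAS1, thromboxane synthase, was higher by 1.49 ± 0.073.

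Lists of dividing cells differed from each other. Of all genes, 26.0% were called higher, 26.8% lower and 12.8% higher with all U937 arrays above the 9 others. At least 2-fold higher were 5.0% and lower 5.01%. Of 25 mitosis genes 15 were called higher and 6 lower, and in 14 all U937 arrays were above the 9 others, but only 3 were at least 2-fold higher and 2 lower. TPX2, a spindle assembly factor, read 2165, 2264 and 2116 in U937 and 594 to 871 elsewhere (1.57 ± 0.054), and CENPA, the centromeric histone, was higher by 1.12 ± 0.049. BIRC5, survivin, was lower by -1.18 ± 0.056 and ASPM, a spindle pole protein, by -1.08 ± 0.06, and neither was called in the R406 arrays (-0.072, limma adjusted p = 0.816, and -0.28, limma adjusted p = 0.21). DNA replication and E2F genes were called higher in 8 and lower in 12 of 26 with a median of -0.11, and RRM2, a ribonucleotide reductase subunit, read 3602, 3737 and 3688 against 1186 to 1705 (1.42 ± 0.07). Genes of MYC and ribosome biogenesis were called higher in 12 and lower in 4 of 21 with none reaching 2-fold, while MYC itself was lower than in all 9 others (-0.59 ± 0.053). CDKN2A, a tumour suppressor locus whose product blocks G1 kinases, read 301, 293 and 259.8 in U937, 61.05, 47.4 and 49.8 in HL-60 and less in the rest (3.90 ± 0.085), with other probe sets at 2.23 and -0.10, and it was 1 of 6 called higher among 18 G1 genes, where 6 were lower.

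Of 17 p53 genes 10 were called lower and 4 higher, beside 26.8% and 26.0% of all genes, with a median of -0.30. ZMAT3, an RNA-binding p53 target, read 20.4, 15.1 and 17.01 against 59.9 to 230.4 (-2.52 ± 0.07), and GADD45A and SESN1, targets induced by DNA damage, were also below all 9 others (-1.67 ± 0.065 and -1.59 ± 0.078). CDKN1A, the CDK inhibitor, was at 33.3 in U937, 27.04 in HL-60 and 22.4 in KG-1, and high only in MOLM-14 (279). Its difference of -0.74 became 0.41 without MOLM-14, and the list's median became -0.057. In the BCL2 family 8 of 17 were called higher and 4 lower. BCL2A1, an NF-kB target that blocks cell death, read 611, 652 and 583 in U937 and 361, 353 and 342 in HL-60 (2.28 ± 0.068), and BCL2 was below all 9 others at 157, 169 and 142 against 347 to 402 (-1.28 ± 0.058), with its other probe sets at -0.51, -0.17 and -0.024.

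Glycolysis and hypoxia genes were called higher in 12 and lower in 6 of 24, beside 26.0% and 26.8% of all genes. PDK1, pyruvate dehydrogenase kinase, read 269, 291 and 317 against 16.7 to 28.2 (3.79 ± 0.074, SE, limma adjusted p = 1.63e-14), and HK1 and PKM, which open and close glycolysis, were higher by 1.23 ± 0.067 and 1.26 ± 0.059, though the other probe sets of PKM gave 0.24 and 0.13 and were not called. Among 18 genes of ERK output and feedback 8 were called higher and 6 lower, with DUSP4 and DUSP5, phosphatases that act on MAP kinases, higher by 2.07 ± 0.081 and 1.56 ± 0.095. Cholesterol biosynthesis genes were called higher in 6 and lower in 4 of 15. The first was above the 26.0% of all genes and the second near the 26.8%. Oxidative phosphorylation (6 higher and 5 lower of 19) was near both shares.

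**Figure D5:**
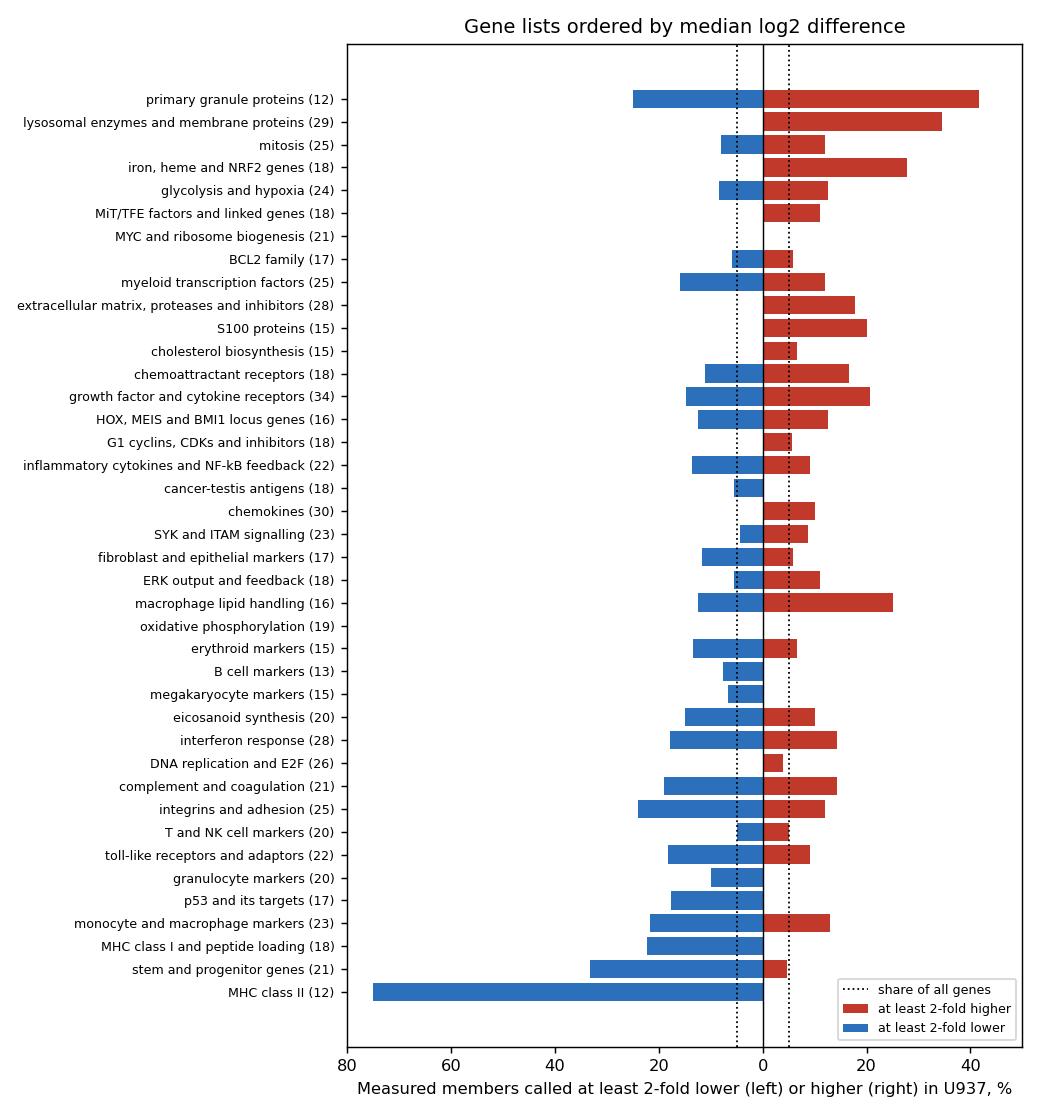
For each of 40 gene lists (measured members in brackets), bars give the percentage of members called at least 2-fold higher (right, red) or lower (left, blue) in U937, and dotted lines mark the 5.0% and 5.01% of all genes. Primary granule, lysosomal and iron, heme and NRF2 genes reach furthest to the right, and MHC class II and stem and progenitor genes furthest to the left.

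Markers of other cell types were mostly at low levels in U937. The summed intensity ran from 118 to 124 for 13 B cell markers, from 203.8 to 216 for 15 megakaryocyte markers, from 239.6 to 253 for 15 erythroid markers and from 177 to 187 for 17 fibroblast and epithelial markers. None of these sums was the highest of the 4 lines. For 20 T and NK cell markers it ran from 953 to 993, above the other lines (298 to 669.8), and 1 gene accounted for most of it: NKG7, a granule protein of killer cells, at 797, 819.7 and 817 (2.22 ± 0.056). CD3D, CD3E, CD2 and LCK were between 6.42 and 16.8 in U937. FAP, a fibroblast protease, read 37.9, 43.8 and 47.8 against 5.603 to 8.35 (2.51 ± 0.078), while COL1A1 was at 20.1 to 23.3, COL1A2 at 7.26 to 8.36, EPCAM at 4.96 to 5.24 and CDH1 at 5.94 to 7.79. KLF1, an erythroid factor, and HBZ, an embryonic globin, were higher by 1.27 ± 0.13 and 0.87 ± 0.083, with HBB and ALAS2 between 10.5 and 14.9. The other probe set of HBZ gave -0.0061 and was not called. Among 18 cancer-testis antigens 1 was called higher and 3 lower, beside 26.0% and 26.8% of all genes.

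The same comparison in the 12 R406 arrays, which the DMSO test did not use, gave the same direction and a call for 1203 of the 1217 genes at least 2-fold different in DMSO (98.85%), and for all 30 genes with the highest and lowest differences. Of all 19724 probe sets, 5127 were called higher and 5408 lower in the R406 arrays, which come from the same lines. GPNMB differed by 6.41 there, with U937 at 1864 to 2163. Its difference from the other lines changed by 0.02 ± 0.15 from DMSO to R406 arrays (SE, limma interaction term, adjusted p = 0.936). The U937 and MOLM-14 arrays themselves all read higher for GPNMB with R406 than with DMSO. CCL2 behaved otherwise: with R406 U937 read 218 to 249 and HL-60 2024 to 2484, so that HL-60 and not U937 was highest, and the difference was 1.71 instead of 4.40 (change -2.69 ± 0.14, limma adjusted p = 1.71e-11). Of all 12165 genes, 8.89% were at least 2-fold higher in the R406 arrays, against 5.0% in the DMSO arrays. Mitosis had 16 of 25 members at least 2-fold higher in R406 arrays against 3 in DMSO arrays, DNA replication and E2F 18 of 26 against 1, and MYC and ribosome biogenesis 13 of 21 against 0. Lysosomal genes had 8 of 29 against 10. MYC turned from -0.59 to 0.65 and CXCL8 from 1.08 to -1.20. These counts were not tested against each other.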

How the data were processed

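Total RNA of 4 AML lines, taken after 24 h in DMSO or R406, was measured on Affymetrix high-throughput arrays of the human A set. The authors deposited probe set intensities made with RMA, per the submitters' processing notes, with no version or detection calls given in the sources used here. Their range is that of linear, not logarithmic, values, and log2(intensity + 1) entered the fits. From 22277 probe sets, those of controls (62), of several symbols (568) or of no listed gene (1923) were removed. A model with a mean per DMSO group (12 arrays) was estimated by limma (version 3.58.1, under R 4.3.3; lmFit, eBayes, 8 residual degrees of freedom), and p-values were adjusted by the Benjamini-Hochberg method over the 19724 probe sets left. On simulated data with 200 changes, split evenly between 1.5-fold and 2-fold, the fit recovered 95% and 100% of them, with 3.94% of calls false. In the simulation the lines shared a mean at all other probe sets. Here 49.1% of probe sets were called, so the false share need not carry over. The number of arrays limits the precision.

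The probe set brightest on average across the 24 arrays stood for its gene. Genes were named by rule: the 15 highest and 15 lowest called differences with the 3 U937 arrays beyond the 9 others, GPNMB, CCL2, cell type markers, and up to 5 called genes per list with the largest difference. SYK, ITGB3, IFI6, ISG15 and further lysosomal genes were added after values were seen. The 40 gene lists (867 genes, 772 measured; 1 further list and 1 marker are not reported here) and the comparison itself were chosen with earlier results of these data known. The lines, probe set choice, scaling, pseudocount, dim genes, replicate block and each array were varied in turn. Promoter sequences come from RefSeq (GRCh38.p14).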

Additional observations from a re-analysis of the deposited data

Results flagged for a closer look

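The difference between U937 and the other lines was tested again in the R406 arrays, and its change from DMSO to R406 arrays was tested for the 30 genes with the highest and lowest differences (limma interaction term, adjusted over all probe sets). It changed at an adjusted p under 0.05 for 17 of them, and the direction against the other lines held for all 30. The changes below are R406 minus DMSO, in log2 units.

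Among the genes high in U937, the difference shrank by the most for CCL2, at -2.69, and for TMEM158, at -1.5. It also shrank for HS3ST2 at -0.52, MX2 at -0.47 and NXF3 at -0.39. It grew for HSPA1A at 1.01, ANXA2 at 0.48 and CD93 at 0.41. For CCL2, the U937 arrays read 1208 to 1326 with DMSO and 218 to 249 with R406, and the HL-60 arrays had a mean of 701 with DMSO and read 2024 to 2484 with R406.

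Among the genes low in U937, the gap narrowed for CD81 at 1.03, MEST at 0.95, GGH at 0.72, LAPTM4B at 0.57, CA2 at 0.57, YBX3 at 0.43 and ARMCX6 at 0.43. It widened for CYP1B1 at -0.97 and SDCBP at -0.91. LAPTM4B stayed at 6.65 to 7.89 and SDCBP at 6.53 to 6.83 in the U937 R406 arrays.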

How the results depend on the processing

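GPNMB kept its direction and its call in all alternatives run for it, with log2 differences from 5.43 (pseudocount 16) to 6.54 (KG-1 left out), and CCL2 ranged from 1.71 (R406 arrays) to 6.18 (HL-60 left out). Leaving out 1 array at a time gave 4416 to 4743 probe sets higher, 4418 to 4914 lower, 857 to 882 at least 2-fold higher and 810 to 845 at least 2-fold lower, with GPNMB at 6.33 to 6.42 and CCL2 at 4.36 to 4.44. The counts at least 2-fold higher and lower became 1527 and 1269 in R406 arrays, 539 and 508 with probe sets averaged per gene (fewer features tested), and 562 and 508 with a pseudocount of 16, which shrinks differences of dim genes. Without probe sets that can bind several transcripts, again fewer features, they were 412 and 420, with 2163 called higher and 2453 lower. The cause was not tested for the R406 arrays. With the replicate number as a block, 4730 probe sets were higher and 4928 lower, and no call named here changed. Of 18 pairs of same-numbered arrays only 1 had deviations correlated above 0.1 (range -0.10 to 0.14), so the numbers were not used as pairs. CCL2 could not be fitted without such probe sets, and GPNMB and CCL2 were not run with the dimmest probe sets (33.3%) left out. The share of calls that were higher was 49.1%, 49.7% after quantile normalization and 50.5% after median centring. Of 3622 values for 148 further genes 3595 kept direction and call. Turned were, without KG-1, ANGPT1 (0.062), AZU1 (-0.94), CD34 (0.055) and PRTN3 (-1.04), without HL-60, CD14 (0.19), FPR1 (0.43) and S100A8 (1.33), without MOLM-14, CDKN1A (0.41) and CXCL8 (-0.29), and in R406 arrays, CCR2 (0.12), CXCL8 (-1.20), FCGR1A (0.66), MYC (0.65) and S100A8 (0.039). Arrays without detection calls cannot order levels near the floor. Of 49 genes named with a call of at least 2-fold and several probe sets, 32 had all other probe sets called the same way, 17 at least 1 that was not and none an opposite call. The tally compares direction and call, not the size of the difference. That tally does not cover ERAP1, a gene of the MHC class I list called lower at -1.53. Another of its probe sets was called higher at 1.04.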

Other observations

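The genes that set U937 apart were spread unevenly over the chromosomes, which the choice of arrays did not use. By RefSeq (GRCh38.p14), 12155 of the genes had a chromosome, and 23 chromosomes held at least 100 measured genes each. The share called at least 2-fold higher in U937 ran from 1.93% on chromosome 12 to 11.5% on chromosome 15 (43 of 374 genes), with 11.1% on chromosome 20 (36 of 325) and 10.3% on chromosome X (49 of 475), beside 5.0% of all genes. CTSH and ANXA2 are on chromosome 15, and CD93 and FERMT1 on chromosome 20. The share called at least 2-fold lower ran from 2.41% on chromosome 15 to 10.1% on chromosome 8 (44 of 437), beside 5.01% of all genes. Of the 15 lowest genes 6 are on chromosome 8: LAPTM4B, SDCBP, GGH, OXR1, CA2 and CEBPD. The median difference was 0.13 on chromosomes 15 and 20, 0.092 on chromosome X and -0.11 on chromosome 8. The pattern was noticed in the named genes and then counted over all genes, and no test was made of it.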
